A study of Mus musculus with 7 samples.

Results

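The epicardial cells of wild-type mouse hearts are described here by their number, their place in the heart, their sub-clusters and their depth. They were the 1084 cells of 27445 in the CD1 table and the 1063 of 25436 in the C57BL/6 table that the authors' final annotation calls epicardial, without 79 C57BL/6 cells that the authors marked for exclusion, so 2147 of 52881 cells in all. Hearts of both strains were cut into left and right atrium (LA, RA) and left and right ventricle (LV, RV), and each stage and chamber was tagged with its own lipid-anchored DNA barcode, pooled and profiled by droplet scRNA-seq (MULTI-seq). CD1 hearts were taken at 18 stages from E9.5 to P9 in 3 pools (E9.5_P3, E18_P1 and P2_P9), and C57BL/6 hearts at 17 stages from E10.5 to P9 in 2 pools (E10.5_P4 and P5_P9). All animals were untreated wild types. Each sample was made of several hearts of 1 stage, so the spread between animals was not measured, and the tests below take stages as their units. The atrioventricular canal and the ventricular septum were collected with the LV.

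The epicardium is the outer mesothelial layer of the heart. It comes from the proepicardium, a transient cluster of progenitors at the venous pole, whose cells spread over the looped heart tube. Part of its cells then undergo an epithelial-to-mesenchymal transition, enter the heart wall and form most of the cardiac fibroblasts and many of the mural cells of the coronary vessels, while the layer that stays outside sends growth signals to the cardiomyocytes (CMs). *Wt1* and *Tbx18* encode transcription factors of this layer, *Aldh1a2* an enzyme that makes retinoic acid, and *Upk3b* a membrane protein of mesothelial cells. The tables used here give labels and quality values per cell and no gene values, so the label could not be checked against *Wt1* and *Upk3b*.

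There were 72 CD1 samples with 12 to 2091 cells each, and 68 C57BL/6 samples with 9 to 5416 cells each. The median cell had 15715 UMIs (molecules counted by their barcodes) and 3723 detected genes in CD1, and 12421.5 UMIs and 3324 detected genes in C57BL/6. Shares are given as percent of the non-myocytes, that is of all cells but atrial and ventricular CMs, which numbered 11 to 590 per CD1 sample and 6 to 3213 per C57BL/6 sample. A share of a single sample or of pooled cells has an exact (Clopper-Pearson) 95% interval, and where no cell was found the upper limit is a share of 3 cells. Interval and limit cover counting error only, so a sample of few cells gives a wide interval and a large one a firm value. A share can move because the epicardial cells or the other cells change in number, and these cannot be told apart. Of the cells, 153 in CD1 and 128 in C57BL/6 carried a cell barcode that also occurred in another well of the strain, among them 10 and 4 epicardial cells.

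The label of the earliest CD1 epicardial cells is uncertain in the authors' own tables. Of the 1084 cells, 913 came from cluster 12 and 171 from cluster 21, and a second deposited annotation column calls all 171 cells of cluster 21 ventricular CMs and all 913 cells of cluster 12 epicardial. Cluster 21 held 13 of the 13 epicardial cells at E9.5 (interval 75.3 to 100%) and 56 of 59 at E10.5 (94.9%, 85.9 to 98.9%). It held 33 of 118 at E11.5 (28.0%, 20.1 to 37.0%), 22 of 88 at E12.5 (16.4 to 35.4%) and 3 of 84 at E13.5 (3.57%, 0.743 to 10.1%). Later it held 14 of 143 at E14.5 (9.79%), 9 of 47 at P2 (19.1%), 8 of 36 at P4 (22.2%) and 2 of 10 at P9 (20%, 2.52 to 55.6%). At the other stages from E15.5 on it held at most 7.14%. The authors also marked 78 cells, all of sub-cluster 6, as unsure between valve and epicardial cells, and 55 of these were from E10.5. The median cell of cluster 21 had 20194 UMIs, 4753 detected genes and a doublet score of 0.239, against 9337 UMIs, 3129 genes and 0.131 in cluster 12. In C57BL/6 all members came from 1 cluster. With cluster 21 counted as CMs, CD1 had 0 epicardial cells at E9.5 and 3 at E10.5, so every CD1 value of these stages below rests on the label of that cluster.

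The epicardial share of non-myocytes had its highest value at mid-gestation in both strains and was low at most stages after birth. In CD1 the mean over the chambers was 6.11% at E9.5, 22.1% at E10.5 and 26.5% at E11.5, reached its highest value of 32.4% at E12.5, and was 24.1% at E13.5 and 23.9% at E14.5. It was 14.1% at E15.5, 9.01% at E17.5, 10.53% at P0, 4.34% at P1 and between 1.97% and 6.28% from P2 to P9. In C57BL/6 it was 7.17% at E10.5, 9.75% at E11.5, 11.8% at E12.5, 7.12% at E13.5 and highest at 16.4% at E14.5. It was 13.1% at E15.5, 3.02% at E18.5, 9.36% at P1 and between 1.003% and 5.37% from P2 to P9. The C57BL/6 values at E10.5 and E13.5 thus lay below the one at P1. The E14.5 value of C57BL/6 rests on few cells, 27 epicardial cells in all, with 18 non-myocytes in the LA and 10 in the RA.

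The share fell with the order of the stages in both strains. In CD1 rho was -0.80 (two-sided permutation test, p = 0.00018, adjusted p = 0.0006 over 10 relations, n = 18 stages) and r was -0.75 (permutation p = 0.00037, adjusted p = 0.00123), or -0.73 without the 2 stages farthest from the median. In C57BL/6 rho was -0.74 (permutation p = 0.0011, adjusted p = 0.00275, n = 17) and r was -0.72 (permutation p = 0.0015, adjusted p = 0.00375), or -0.82 without the 2 farthest stages. Within the largest pool of each strain neither passed after adjustment, with rho -0.60 (permutation p = 0.0319, adjusted p = 0.0799, n = 13) in CD1 and -0.58 (permutation p = 0.0424, adjusted p = 0.0742, n = 13) in C57BL/6, and r -0.65 and -0.62. The small pools had rho 0.2 over the 5 stages of P2_P9 (exact permutation p = 0.783, smallest p allowed 0.0167) and 0.4 over the 4 stages of P5_P9 (exact permutation p = 0.75), where no p under 0.0833 can be reached, and E18_P1 has 2 stages only, with 6.48% at E18 and 3.73% at P1.

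With cluster 21 counted as CMs, the CD1 share was 0% at E9.5, 1.41% at E10.5, 20.1% at E11.5 and 26.6% at E12.5, and the call over all stages was lost (rho -0.35, permutation p = 0.156, adjusted p = 0.313). With the cells marked as unsure counted as other non-myocytes it was 0% and 1.65% at the first 2 stages and 25.2% at E11.5, and the call was lost as well (rho -0.35, permutation p = 0.152, adjusted p = 0.304). From E11.5 on, with cluster 21 counted as CMs, the fall was called (rho -0.92, permutation p = 1e-05, which is the smallest that 100000 resamples allow, adjusted p = 1e-04, n = 16). These alternatives were chosen after the data were seen. The plot of the 3 annotations shows that they differ at E9.5 and E10.5, and with cluster 21 as CMs also at E11.5 and E12.5. From E13.5 they lie close in points. At P4, however, the share was 3.36% with cluster 21 counted as CMs, against 4.60% with the deposited label.

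**Figure D1:**
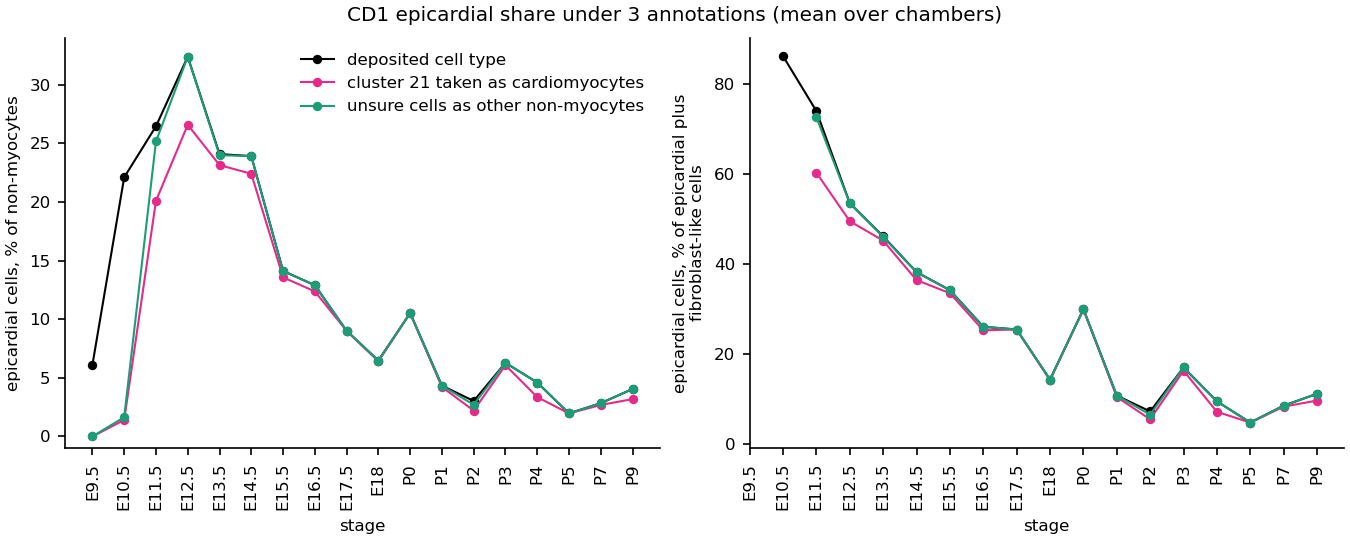
Epicardial share in CD1 hearts by stage, as percent of non-myocytes (left) and of epicardial plus fibroblast-like cells (right), each point the mean over the chambers with at least 10 cells in the denominator. Black shows the deposited cell type, pink cluster 21 counted as CMs and green the cells marked as unsure counted as other non-myocytes. At E10.5 the share of non-myocytes is 22.1% in black, 1.41% in pink and 1.65% in green.

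Early and postnatal stages were then compared as groups. The share of non-myocytes in CD1 was 21.8% ± 11.3 (SD, n = 4 stages) up to E12.5 and 4.71% ± 2.69 (SD, n = 8) from P0 to P9, so that early stages were 17.1 points higher (exact permutation test, two-sided, p = 0.00606, adjusted p = 0.00808 over 4 comparisons, smallest p allowed 0.00202). In C57BL/6 it was 9.58% ± 2.33 (SD, n = 3) and 3.25% ± 2.89 (SD, n = 8), a difference of 6.33 points (exact permutation p = 0.0121, adjusted p = 0.0121, smallest p allowed 0.00606). With cluster 21 counted as CMs the CD1 difference was 7.74 points and not called (exact permutation p = 0.101). With E9.5 and E10.5 left out as well, which this label puts at 0% and 1.41%, it was 19.1 points and called (exact permutation p = 0.0222, adjusted p = 0.0222). Only E11.5 and E12.5 then remained as early stages, and this p is the smallest that such a split allows. With blood cells left out of the denominator the differences were 34.1 points in CD1 and 15.46 points in C57BL/6 (adjusted exact permutation p = 0.00606 for both). Postnatal stages of 1 pool alone gave 15.2 points in CD1 (exact permutation p = 0.0857) and 5.29 points in C57BL/6 (exact permutation p = 0.0857), neither past the threshold, with a smallest p allowed of 0.0286. With the cells of the chambers pooled the C57BL/6 difference was 5.56 points (exact permutation p = 0.0545, adjusted p = 0.0727).

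Ventricular epicardial cells were rare from E15.5 on. In CD1 the pooled ventricular samples held 44 epicardial cells of 156 non-myocytes at E10.5 (28.2%, interval 21.3 to 36.0%), 58 of 278 at E11.5 (20.9%, 16.2 to 26.1%) and 33 of 261 at E14.5 (12.6%, 8.87 to 17.3%). At E15.5 they held 9 of 290 (1.43 to 5.81%), at E16.5 2 of 233 (0.858%, 0.104 to 3.07%) and at E17.5 2 of 420 (0.476%, 0.0577 to 1.71%). The ventricular mean with cluster 21 counted as CMs was 2.10% at E10.5, 14.6% at E11.5 and 13.2% at E14.5, against 29.7%, 21.6% and 13.6% with the deposited label. With the unsure cells counted as other non-myocytes it was 0.472% at E10.5. The interval at E14.5 lies above those from E15.5 on to E18. From P5 to P9 no epicardial cell was found in a CD1 ventricular sample, which allows up to 5.45% at P5 (0 of 55), 2.5% at P7 (0 of 120) and 1.23% at P9 (0 of 243).

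The CD1 atrial samples kept more of them at the same stages. Pooled over LA and RA the share was 35.7% at E11.5 (60 of 168, interval 28.5 to 43.5%), 47.4% at E12.5 (55 of 116, 38.1 to 56.9%) and 33.8% at E14.5 (110 of 325, 28.7 to 39.3%). It was 25.4% at E15.5 (71 of 280, 20.4 to 30.9%), 17.2% at E17.5 (61 of 354, 13.4 to 21.6%) and 19.1% at P0 (117 of 614, 16.02 to 22.4%). At P2 it was 5.21% (43 of 825, 3.80 to 6.96%) and at P9 8.26% (10 of 121, 4.03 to 14.7%). Epicardial cells were found in every CD1 atrial sample, the lowest share being 3.65% in the LA at P5.

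In C57BL/6 the ventricular samples held 29 epicardial cells of 279 non-myocytes at E10.5 (10.4%, interval 7.07 to 14.6%), 94 of 947 at E12.5 (9.93%, 8.10 to 12.01%) and 264 of 3556 at E13.5 (7.42%, 6.58 to 8.34%). They held 19 of 415 at E14.5 (4.58%, 2.78 to 7.06%) and 10 of 524 at E15.5 (1.91%, 0.919 to 3.48%), and from then on at most 5 cells at any stage. A single sample, the RV at E13.5, held 231 of the 1063 C57BL/6 cells. The atrial share was 22.3% at E15.5 (92 of 413, 18.4 to 26.6%), 14.4% at E17.5 (95 of 661, 11.8 to 17.3%), 18.1% at P1 (179 of 989, 15.7 to 20.6%) and 5.77% at P9 (21 of 364, 3.61 to 8.68%). Before E15.5 the C57BL/6 atria are thinly sampled, with 32 epicardial cells of 292 non-myocytes over 10 samples, 3 of which held none.

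Of all epicardial cells, those from atria made up 54.5% in CD1 (275 of 505) and 7.13% in C57BL/6 (32 of 449, 4.93 to 9.91%) up to E14.5. Between E15.5 and birth they made up 93.4% (256 of 274, 89.8 to 96.1%) and 92.2% (270 of 293, 88.5 to 94.96%), and after birth 95.4% (291 of 305, 92.4 to 97.5%) and 96.3% (309 of 321, 93.6 to 98.1%). In both strains nearly all later epicardial cells thus came from the atria. Up to E14.5 the strains differed in the cells sampled and in the shares. CD1 had 883 atrial and 1549 ventricular non-myocytes, and C57BL/6 had 292 and 5277. Epicardial cells were 31.1% of the atrial non-myocytes in CD1 (28.1 to 34.3%) and 10.96% in C57BL/6 (7.62 to 15.1%). Of the ventricular non-myocytes they were 14.8% and 7.90%. The parts of sampling and share in the early value were not tested. After birth, 8 of 16 CD1 ventricular samples and 10 of 16 C57BL/6 ones held no epicardial cell.

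**Figure D2:**
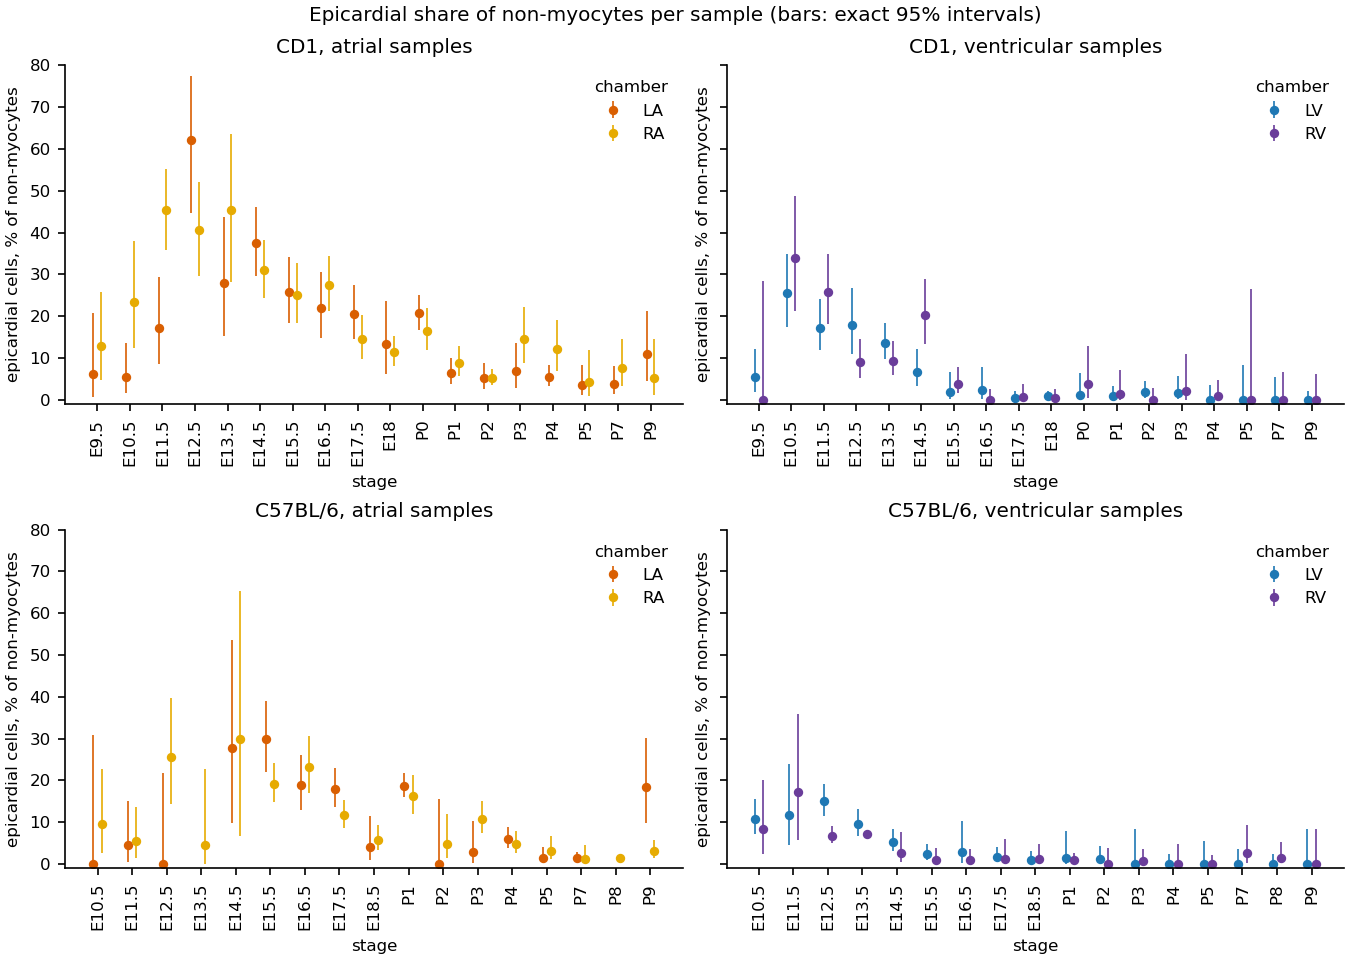
Epicardial cells as percent of non-myocytes in each sample, by stage, in CD1 (top) and C57BL/6 (bottom), with atrial samples on the left and ventricular samples on the right. Points are single samples with at least 10 non-myocytes and bars are exact 95% intervals. From E15.5 on, the ventricular points lie between 0 and 3.83% in CD1 and between 0 and 2.99% in C57BL/6.

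Paired within stages, the mean share was 18.1% in the atria and 5.80% in the ventricles of CD1, a difference of 12.3 points ± 11.4 (SD, n = 18 stages), with the atria higher at 17 of 18 stages (two-sided sign-flip permutation test, p = 0.00034, adjusted p = 0.00204 over 6 comparisons). The exception was E10.5, where the ventricles were higher by 15.3 points (difference -15.3), and with cluster 21 counted as CMs the means there were 0.725% in the atria and 2.10% in the ventricles. The difference over the stages was 11.7 points with cluster 21 counted as CMs (permutation p = 2e-05, adjusted p = 0.00012). Without E9.5_P3 it was 6.49 points over 7 stages (exact permutation p = 0.0156, adjusted p = 0.0469). In C57BL/6 the means were 10.9% and 3.24%, a difference of 7.65 points ± 10.0 (SD, n = 15), with the atria higher at all stages but E10.5 and E11.5, 13 of 15 (permutation p = 0.0109, adjusted p = 0.0327). Leaving out E14.5, E15.5, E16.5, E17.5, P1 or P9 ended the C57BL/6 call, with differences of 6.42 to 7.43 points and adjusted p up to 0.0624. Within the pool E10.5_P4 it was 8.47 points (permutation p = 0.0253, adjusted p = 0.076).

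No difference between left and right passed the threshold. LA minus RA was -2.80 points ± 11.1 (SD, n = 18) in CD1 (permutation p = 0.306, adjusted p = 0.571) and -1.49 ± 9.37 (SD, n = 15) in C57BL/6 (permutation p = 0.571, adjusted p = 0.571). LV minus RV was -0.81 points ± 5.22 (SD, n = 18) in CD1 (permutation p = 0.529, adjusted p = 0.571) and 0.614 ± 2.82 (SD, n = 17) in C57BL/6 (permutation p = 0.41, adjusted p = 0.571). Single stages differed by up to 28.2 points between the atria of CD1 (difference -28.2, RA higher at E11.5). There the intervals of the LA (8.59 to 29.4%) and the RA (35.9 to 55.2%) did not overlap.

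Each side of the heart was also followed over the stages, in relations chosen after the data were seen and adjusted over 12. The ventricular share fell in both strains, with rho -0.86 in CD1 (permutation p = 1e-05, adjusted p = 0.00012) and -0.89 in C57BL/6 (permutation p = 2e-05, adjusted p = 0.00012). There r was -0.69 (permutation p = 0.00069) and -0.80 (permutation p = 1e-05), and -0.69 and -0.77 without the 2 farthest stages. The atrial share fell in CD1 (rho -0.71, permutation p = 0.00149, adjusted p = 0.00378). There r was -0.64 (permutation p = 0.00365, or -0.60 without the 2 farthest stages). In C57BL/6 the atrial relation was not called (rho -0.37, permutation p = 0.149, adjusted p = 0.163), with r -0.37 (permutation p = 0.139, or -0.53 without the 2 farthest stages). With blood cells left out it was called (rho -0.69, permutation p = 0.00266, adjusted p = 0.00399). With the unsure cells counted as other non-myocytes, neither CD1 side passed over all stages (atria rho -0.33, permutation p = 0.181, adjusted p = 0.242; ventricles rho -0.48, permutation p = 0.0455, adjusted p = 0.109). With cluster 21 counted as CMs the ventricular call stayed (rho -0.61, permutation p = 0.00848, adjusted p = 0.0204) and the atrial one was lost (rho -0.34, permutation p = 0.164, adjusted p = 0.219), and from E11.5 on both were called (rho -0.89, permutation p = 2e-05, and -0.91, permutation p = 1e-05, adjusted p = 0.00012 for both). Within the largest pools the ventricular rho was -0.76 in CD1 (permutation p = 0.00424) and -0.97 in C57BL/6 (permutation p = 1e-05), and the atrial rho was -0.43 (permutation p = 0.141) and 0.0165 (permutation p = 0.965).

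Whether atria and ventricles parted over the stages depends on the scale. The log2 ratio of the atrial to the ventricular share, with 0.5 added to each count, rose in CD1 (rho 0.66, permutation p = 0.00378, adjusted p = 0.00648, n = 18), with r 0.62 (permutation p = 0.0051, or 0.50 without the 2 farthest stages). In C57BL/6 the value was rho 0.41 (permutation p = 0.125, adjusted p = 0.15, n = 15) with r 0.50 (permutation p = 0.0602, or 0.37 without the 2 farthest stages), and within E10.5_P4 it was 0.71 (permutation p = 0.0129, adjusted p = 0.0193). At P5, P7 and P9 the CD1 ventricular samples held no epicardial cell. The CD1 log2 ratios there (2.19, 3.72 and 5.39) thus rest on the 0.5 added and on the number of ventricular non-myocytes. The difference in percentage points had rho -0.38 in CD1 (permutation p = 0.125, adjusted p = 0.15) and 0.0464 in C57BL/6 (permutation p = 0.872, adjusted p = 0.872), with r -0.23 (permutation p = 0.372) and 0.029 (permutation p = 0.919). With blood cells left out of the denominator the order turned in CD1, where the log2 ratio was no longer called (rho 0.52, permutation p = 0.0428, adjusted p = 0.0571) and the difference in points fell with stage (rho -0.90, permutation p = 1e-05, adjusted p = 4e-05). After birth the LV and RV samples went through an added cell strainer that the atrial samples did not. The ventricular shares at E15.5 to E18.5, before that step was used, were at most 3.83% in single CD1 samples and 2.99% in C57BL/6 ones. The parts of the strainer, dissection and digestion in the ventricular shares before and after birth were not tested.

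Epicardial cells form most but not all of the cardiac fibroblasts. In CD1 the ratio of epicardial to fibroblast-like cells, like the share, was lower after birth than at E11.5. Counted over all chambers, CD1 had 5.36 epicardial cells per fibroblast-like cell at E10.5 (59 and 11 cells), 2.36 at E11.5 (118 and 50), 0.704 at E12.5 (88 and 125) and 0.389 at E13.5 (84 and 216). Counting cluster 21 as CMs leaves 3 epicardial and 11 fibroblast-like cells at E10.5 and 85 and 50 at E11.5, so epicardial cells were then the fewer at E10.5. With the deposited label the CD1 ratio was 0.668 at E14.5 (143 and 214), 0.513 at E15.5 (80 and 156) and 0.124 at E18 (51 and 410). It was 0.839 at P0 (120 and 143) and between 0.0559 and 0.241 from P1 to P9. In C57BL/6 the ratio was 0.289 at E10.5, 0.425 at E11.5, 0.212 at E12.5 and 0.129 at E13.5. It was 0.373 at E16.5, 0.0806 at E18.5, highest at 0.440 at P1, 0.0251 at P5 and 0.132 at P9. This pooled ratio thus did not fall steadily in either strain. In C57BL/6 epicardial cells were the fewer of the pair at every stage.

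As a share of epicardial plus fibroblast-like cells, with equal weight for each chamber, the epicardial cells of CD1 were at 86.1% ± 13.1 (SD, n = 3 chambers) at E10.5, 73.9% ± 19.7 (SD, n = 4) at E11.5, 53.4% ± 33.4 (SD, n = 4) at E12.5, 38.1% ± 20.4 (SD, n = 4) at E14.5 and 14.2% ± 14.6 (SD, n = 4) at E18. At P0 the value was 29.9% ± 27.1 (SD, n = 4) and at P5 4.70% ± 4.44 (SD, n = 3). This share fell with stage (rho -0.91 and r -0.87, permutation p = 1e-05 and adjusted p = 1e-04 for each, n = 17 stages, and r -0.90 without the 2 farthest stages). Within E9.5_P3 rho was -0.96 (permutation p = 2e-05, n = 12), and over the 5 stages of P2_P9 it was 0.5 (exact permutation p = 0.45). It was 71.1% ± 16.51 (SD, n = 3 stages) early and 12.3% ± 7.94 (SD, n = 8) after birth, a difference of 58.9 points (exact permutation p = 0.00606, the smallest p allowed, adjusted p = 0.00808). The alternatives with cluster 21 counted as CMs or the unsure cells counted as other non-myocytes kept the call. Under both, however, no chamber at E10.5 reached 10 cells of the pair. That stage then gave no value, so the alternatives do not test the label where it matters most.

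In C57BL/6 this share was 28.1% at E10.5, 27.9% at E11.5, 25.2% at E12.5, 25.2% at E16.5, 8.72% at E18.5, 21.4% at P1 and 1.66% at P5. It fell with stage, with rho -0.85 (permutation p = 2e-05, adjusted p = 1e-04, n = 17). The linear r was -0.85 (permutation p = 1e-04, adjusted p = 0.0005), or -0.89 without the 2 farthest stages. Within E10.5_P4 rho was -0.83 (permutation p = 0.00087, n = 13), and over the 4 stages of P5_P9 it was 0.8 (exact permutation p = 0.333, smallest p allowed 0.0833). Early stages had 27.0% ± 1.62 (SD, n = 3) and postnatal stages 7.78% ± 6.79 (SD, n = 8), a difference of 19.3 points (exact permutation p = 0.00606, the smallest p allowed, adjusted p = 0.00808). With the cells of the chambers pooled it was 11.4 points and not called (exact permutation p = 0.0848, adjusted p = 0.0848), and within E10.5_P4 it was 16.6 points (exact permutation p = 0.0571, adjusted p = 0.0762, smallest p allowed 0.0286).

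**Figure D3:**
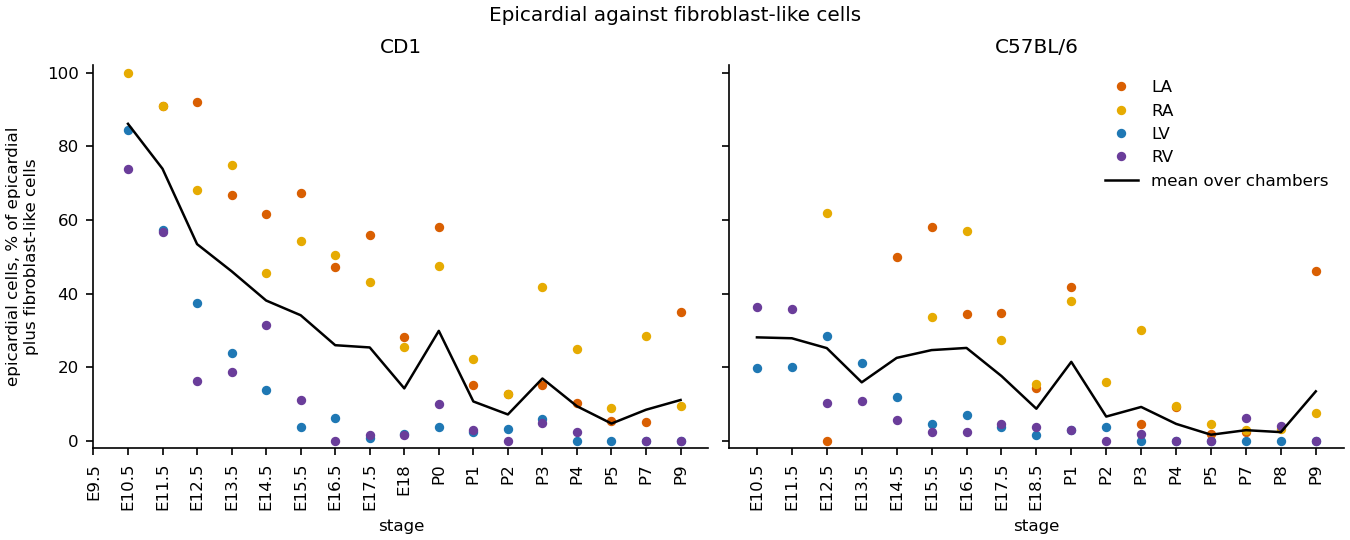
Epicardial cells as percent of epicardial plus fibroblast-like cells by stage in CD1 (left) and C57BL/6 (right). Points are samples with at least 10 cells of the pair of types, coloured by chamber, and the black line is the mean over the chambers. The CD1 line runs from 86.1% at E10.5 to 11.1% at P9, and the C57BL/6 line from 28.1% at E10.5 to 13.4% at P9.

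Against endocardial endothelial cells, which line the inside of the chambers and do not come from the epicardium, the epicardial share of the pair also fell with stage (chosen after the data were seen). In CD1 rho was -0.81 (permutation p = 0.00015, adjusted p = 0.0006) and in C57BL/6 -0.72 (permutation p = 0.0018, adjusted p = 0.00378). Pearson's r was -0.79 (permutation p = 0.00014) and -0.77 (permutation p = 0.0004), or -0.81 and -0.87 without the 2 farthest stages. Within the largest pools rho was -0.82 (permutation p = 0.00094) and -0.86 (permutation p = 0.00032). In CD1 the call was lost with cluster 21 counted as CMs (rho -0.25, permutation p = 0.31, adjusted p = 0.338) and with the unsure cells counted as other non-myocytes (rho -0.24, permutation p = 0.327, adjusted p = 0.357). It was also lost with the 10% highest doublet scores of each well left out (rho -0.48, permutation p = 0.046, adjusted p = 0.0789).

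CD1 hearts had a larger epicardial share than C57BL/6 hearts over 16 matched stages, for which E18 and E18.5 were taken as 1 stage. The mean share of non-myocytes was 12.4% and 7.07%, a difference of 5.34 points ± 7.62 (SD), higher in CD1 at 14 of 16 stages (two-sided sign-flip permutation test, p = 0.00845, adjusted p = 0.00845 over 2 measures). Of epicardial plus fibroblast-like cells the means were 29.1% and 15.98%, a difference of 13.1 points ± 18.4 (SD), again with CD1 higher at 14 of 16 stages (permutation p = 0.00375, adjusted p = 0.0075). At both measures the exceptions were P1 and P9. The differences were 14.9, 16.7, 20.6 and 16.97 points of non-myocytes from E10.5 to E13.5, and 0.899 to 1.40 points from E15.5 to E17.5. At E10.5 the CD1 share with cluster 21 counted as CMs was 1.41%, below the 7.17% in C57BL/6.

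No pool held both strains, and the strains were clustered and annotated apart, so strain, pool and annotation cannot be told apart. With cluster 21 counted as CMs the difference in share of non-myocytes was 2.85 points and not called (permutation p = 0.0882, adjusted p = 0.0882). Without E9.5_P3, over 7 matched stages, the differences were 0.272 points (exact permutation p = 0.844, adjusted p = 0.906) and 0.402 points (exact permutation p = 0.906, adjusted p = 0.906).

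The stages P1 and P2 were held by 2 CD1 pools each. At P1 the atrial share was 6.10% in E18_P1 (15 of 246, interval 3.45 to 9.86%) and 8.89% in E9.5_P3 (24 of 270, 5.78 to 12.9%), with overlapping intervals. At P2 it was 9.06% in E9.5_P3 (26 of 287, 6.00 to 13.0%) and 3.16% in P2_P9 (17 of 538, 1.85 to 5.01%), with intervals apart, so at P2 the pools differed by more than counting error. The 5 wells of E9.5_P3, which are technical repeats, gave between 119 epicardial cells of 934 non-myocytes (12.7%) and 417 of 2527, and the intervals of these wells just failed to overlap. The 4 wells of E10.5_P4 gave 7.23 to 8.90%.

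The deposited sub-clusters of the epicardial cells follow both the stage and the chamber. They were made from the expression of these same cells, so they are described and not tested. In CD1, sub-cluster 6 held 78 cells, 75 of them from stages up to E14.5, and 23 from atria (29.5%, interval 19.7 to 40.9%). It is the group marked as unsure, with a median of 25855.5 UMIs and 5196.5 genes per cell. Sub-cluster 2 followed with 80 of the 118 epicardial cells of E11.5 (67.8%), and sub-cluster 1 with 61 of 84 at E13.5 (72.6%) and 91 of 143 at E14.5 (63.6%). Sub-cluster 1 was spread over the chambers, with 56 cells from the LA, 64 from the RA, 51 from the LV and 50 from the RV.

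Sub-cluster 0 of CD1 was the late and atrial one. It held 324 cells, of which 316 came from atria (97.5%, interval 95.2 to 98.9%), 158 from the LA and 158 from the RA, and 6 came from stages up to E14.5. It was 1.40% of the epicardial cells at E14.5, 22.5% at E15.5, 37.5% at E16.5, 61.9% at E17.5 and 74.2% at P0. Sub-cluster 3 appeared at the same stages, with 17 of 80 cells at E15.5 (21.2%) and 27 of 80 at E16.5 (33.8%), and 127 of its 135 cells were atrial (94.1%, 88.7 to 97.4%). Its cells were shallow, with a median of 4055 UMIs, 1880 genes, 9.596% mitochondrial and 8.59% ribosomal UMIs, against 10095.5 UMIs, 3251.5 genes, 4.93% and 15.48% in sub-cluster 0. Sub-cluster 4, with 112 cells, was present from E10.5 to P4 and had a median of 14880 UMIs and a doublet score of 0.205.

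C57BL/6 was sub-clustered apart from CD1, and its sub-clusters were not matched to those of CD1. Sub-cluster 1 held 272 cells, all from E10.5 to E14.5, of which 22 were atrial (8.09%, interval 5.14 to 11.99%), and made up 22 of 33 epicardial cells at E10.5 (66.7%), 15 of 17 at E11.5 (88.2%) and 159 of 265 at E13.5 (60.0%). Sub-cluster 4 held 13 of 27 cells at E14.5 (48.1%), 70 cells at E15.5 (68.6%) and 35 of 69 at E16.5 (50.7%), and 98 of its 130 cells were atrial (75.4%, 67.1 to 82.5%). Sub-cluster 0, with 306 cells, was 95.1% atrial (92.0 to 97.2%) and held 1 of 27 cells at E14.5, 41 of 100 at E17.5 and 125 of 184 at P1 (67.9%). Sub-cluster 2, with 149 cells, was 94.6% atrial (89.7 to 97.7%) and shallow, with a median of 5251 UMIs, 2208 genes, 6.95% mitochondrial and 12.8% ribosomal UMIs. At E17.5 it held 49 of 100 epicardial cells. CD1 had 275 atrial epicardial cells up to E14.5, and its sub-cluster 0 held 6 cells of those stages. Among later cells, ventricular ones were too few for a comparison of the chambers, and the parts of stage and chamber were not tested.

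The 79 C57BL/6 cells marked for exclusion were all labelled epicardial and came mostly from early stages, 67 of them up to E14.5 (84.8%, interval 74.97 to 91.9%). Their median was 3446 UMIs, 1577 genes and 14.8% mitochondrial UMIs. The CD1 table held no cell with such a mark. The paper reports that some epicardial clusters were excluded, and the CD1 epicardial cells used here held none of the cluster numbers it lists. CD1 cells excluded before deposit, if any, are thus not counted here.

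**Figure D4:**
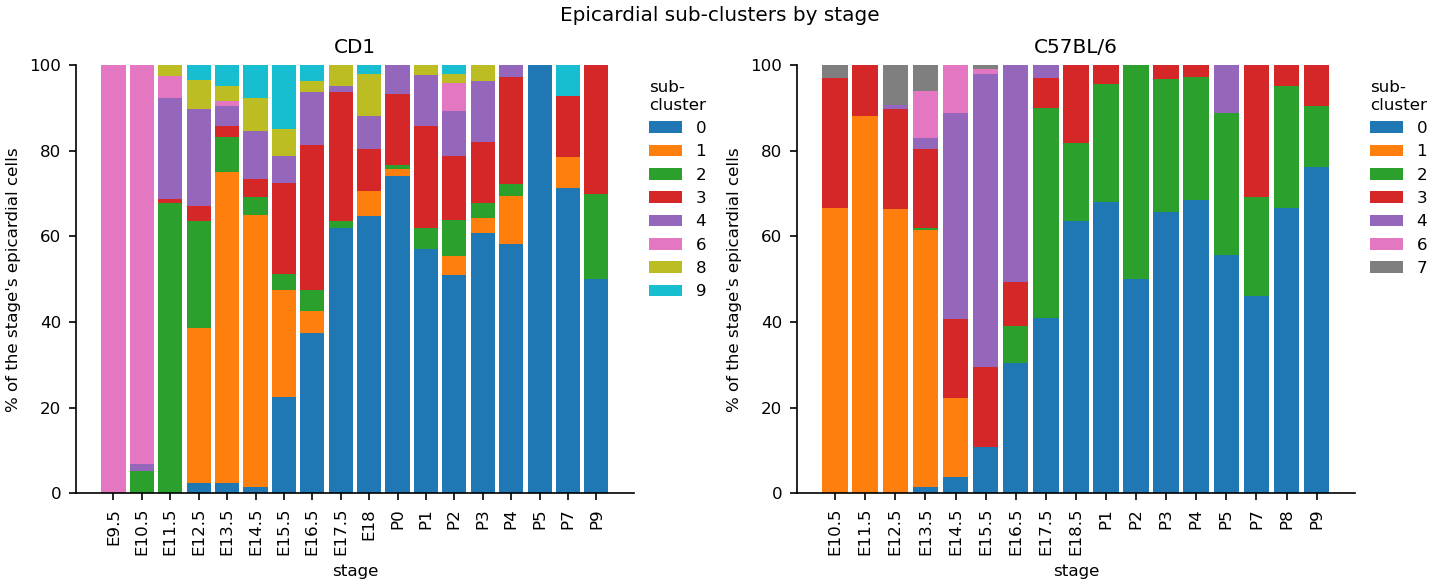
Share of each stage's epicardial cells in each deposited sub-cluster, in CD1 (left) and C57BL/6 (right). The bars add up to 100% and numbers are those of the strain's own sub-clustering, so equal numbers are not equal groups. Sub-cluster 6 is 100% of the CD1 cells at E9.5, and sub-cluster 0 is 74.2% of the CD1 cells at P0 and 67.9% of the C57BL/6 cells at P1. P2 of C57BL/6 (6 cells) and P5 of both strains (8 and 9 cells) rest on few cells.

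Single epicardial cells had a median of 10144 UMIs (quartiles 6701 and 14991.5), 3292 detected genes and 5.02% mitochondrial UMIs in CD1, and 10298 UMIs (7204 and 14890.5), 3276 genes and 4.21% in C57BL/6. Taken as the median of each sample with at least 10 epicardial cells and averaged over the chambers, the UMI count in CD1 ran from 6605.25 at E17.5 to 25931.3 at E10.5 over 14 stages, where the value at E10.5 rests on cluster 21, and in C57BL/6 from 5733 at E17.5 to 14948 at E10.5 over 13 stages. The mitochondrial percent ran from 2.99% at E18 to 7.56% at E15.5 in CD1, and from 2.78% at P9 to 6.54% at E18.5 in C57BL/6. From E15.5 on all of these samples are atrial.

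None of the 6 relations of depth and mitochondrial percent with stage passed the threshold. For the UMI count rho was -0.11 in CD1 (permutation p = 0.704, adjusted p = 0.739) and -0.53 in C57BL/6 (permutation p = 0.0678, adjusted p = 0.136), for detected genes -0.19 (permutation p = 0.512, adjusted p = 0.732) and -0.37 (permutation p = 0.218, adjusted p = 0.363), and for the mitochondrial percent -0.0989 (permutation p = 0.739, adjusted p = 0.739) and -0.15 (permutation p = 0.63, adjusted p = 0.739). Pearson's r was between -0.33 and -0.11 for all of them, with permutation p between 0.272 and 0.697. Without the 2 farthest stages the C57BL/6 r was -0.70 for UMIs (permutation p = 0.0183), -0.62 for detected genes (permutation p = 0.0437) and 0.31 for the mitochondrial percent (permutation p = 0.349), and the CD1 values were -0.38, -0.32 and 0.0254. Without P9, where the only sample had a median of 14284.5 UMIs, the C57BL/6 UMI count fell with stage (rho -0.78, permutation p = 0.00386, adjusted p = 0.00772), as it did within E10.5_P4 (rho -0.82, permutation p = 0.00356, adjusted p = 0.0089). In E9.5_P3 the UMI rho was -0.27 (permutation p = 0.406). The C57BL/6 samples used here were ventricular up to E14.5, but for the RA at E12.5, and atrial from E15.5 on. Stage and chamber can thus not be told apart in the C57BL/6 values.

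The share of ribosomal protein UMIs, looked at after the data were seen, fell with stage in C57BL/6, from 22.2% at E10.5 and 24.2% at E14.5 to 13.6% at E17.5 and 14.2% at P9 (rho -0.79, permutation p = 0.00189, adjusted p = 0.00378, with r -0.79, permutation p = 0.00215, and the same to 2 decimals without the 2 farthest stages). In CD1 it was 18.3% at E10.5, 20.1% at E13.5, 12.9% at E15.5, 10.7% at E17.5 and 15.3% at P4, and the relation was not called (rho -0.52, permutation p = 0.0619, adjusted p = 0.0928, with r -0.48, permutation p = 0.0864). Within the largest pools rho was -0.61 in CD1 (permutation p = 0.0396) and -0.79 in C57BL/6 (permutation p = 0.00586). The C57BL/6 samples with at least 10 epicardial cells were ventricular up to E14.5, but for the RA at E12.5, and atrial from E15.5 on. Stage and chamber can thus not be told apart in the C57BL/6 fall.

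Epicardial cells lay between fibroblast-like and endocardial cells in mitochondrial percent. Against fibroblast-like cells of the same samples the mean was 5.17% and 4.17% in CD1 and 4.43% and 3.42% in C57BL/6, differences of 0.999 points ± 0.998 (SD, n = 13 stages) and 1.005 points ± 1.13 (SD, n = 13), with epicardial cells higher at 10 of 13 stages in each strain (two-sided sign-flip permutation test, p = 0.00345 and 0.00458, adjusted p = 0.0137 for both over 12 comparisons). The 3 stages with the opposite sign were E11.5, E12.5 and E13.5 in CD1 and E10.5, E12.5 and E13.5 in C57BL/6. Epicardial cells were thus higher at every compared stage from E14.5 on. From E15.5 on all of these samples are atrial, and a split by stage was not tested. With a minimum of 5 cells neither was called (0.572 points, permutation p = 0.227, adjusted p = 0.273, and 0.676 points, permutation p = 0.0666, adjusted p = 0.141).

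Against endocardial cells the epicardial mitochondrial percent was lower, with means of 5.08% and 8.01% in CD1 and 4.43% and 6.63% in C57BL/6. The differences were -2.93 points ± 1.80 (SD, n = 14 stages, lower at 14 of 14, permutation p = 9e-05, adjusted p = 0.00108) and -2.20 points ± 2.84 (SD, n = 13, lower at 11 of 13, permutation p = 0.00336, adjusted p = 0.0137). At E10.5 in C57BL/6 epicardial cells had 3.98% and endocardial cells 13.7%.

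In UMI count the epicardial cells were below the fibroblast-like cells in CD1, with a log2 ratio of medians of -0.28 ± 0.36 (SD, n = 13 stages, lower at 10 of 13, permutation p = 0.0119, adjusted p = 0.0286). Leaving out E15.5, E18, P0, P2 or P4 ended this call, with adjusted p of up to 0.0594, and within E9.5_P3 it was -0.11 (permutation p = 0.265). In C57BL/6 the log2 ratio was -0.13 ± 0.35 (SD, n = 13, permutation p = 0.208, adjusted p = 0.277). Detected genes did not differ past the threshold (log2 ratio -0.11, permutation p = 0.0665, adjusted p = 0.133 in CD1, and -0.0259, permutation p = 0.622, adjusted p = 0.622 in C57BL/6). Against endocardial cells neither the UMI count (log2 ratio 0.0908 in CD1, adjusted permutation p = 0.409, and 0.22 in C57BL/6, adjusted permutation p = 0.215) nor the detected genes did (0.0643, adjusted permutation p = 0.349, and 0.13, adjusted permutation p = 0.188).

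**Figure D5:**
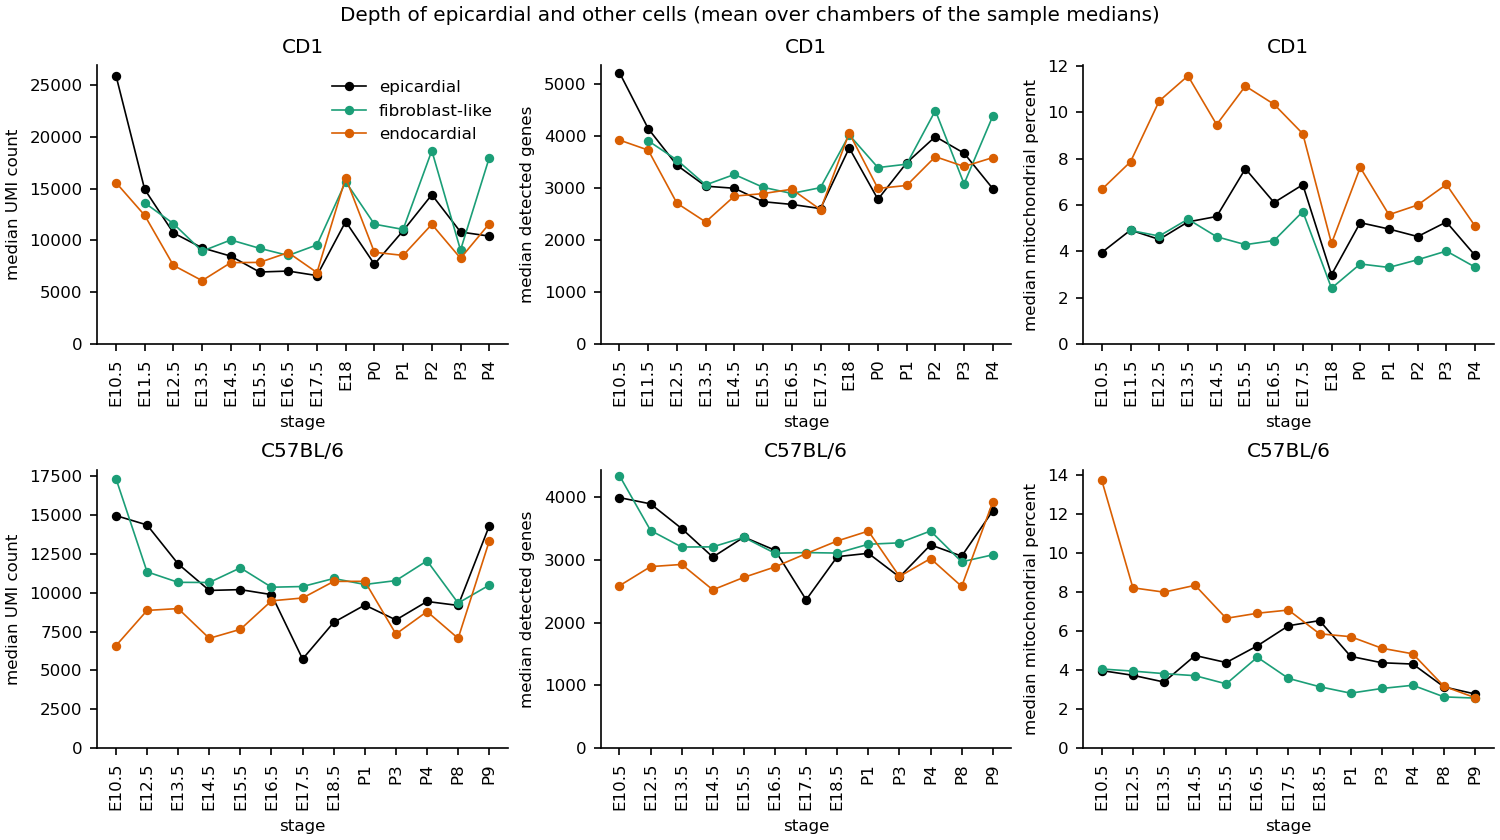
Median UMI count, detected genes and mitochondrial percent per cell by stage for epicardial (black), fibroblast-like (green) and endocardial cells (orange), in CD1 (top) and C57BL/6 (bottom). Points are means over chambers of sample medians, with samples of at least 10 epicardial cells, and for the other types samples that also hold at least 10 cells of that type. The CD1 epicardial UMI count is 25931.3 at E10.5, and the endocardial mitochondrial percent lies above the epicardial one at every CD1 stage.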

How the data were processed

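Single cells of CD1 and C57BL/6 hearts were profiled by MULTI-seq. Per the submitters' processing notes in the labels and the study's methods, the authors aligned reads to GRCm38.p4 with Cell Ranger 3.1.0, matched cells to samples by their barcodes (deMULTIplex), filtered out shallow cells and doublets, and clustered the rest in Seurat. They deposited 1 line per cell in 4 tables. The UMI count per cell was deposited without normalization, beside the count of detected genes, the mitochondrial and ribosomal percent and the doublet score as the authors computed them, with labels for stage, chamber, cluster and cell type. Of the columns, 225 were not used, and the tables of mutant hearts were not used here.

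Shares were computed per stage and chamber, with at least 10 cells in the denominator, and averaged over chambers. Relations with stage order were measured by Spearman's rho and by Pearson's r, each tested by permutation (100000 resamples, exact under 10 stages). Early and postnatal stages were compared by exact permutation over stages, and chambers, strains and cell types by sign flips paired within stages. Tests were two-sided, with Benjamini-Hochberg adjustment within families and a threshold of 0.05 on adjusted p. The stages of a strain are 1 series of pooled samples, so p-values measure the spread between stages. The members and lists were chosen with earlier results of these data known. No gene was tested, and the rule for named genes was to name only markers given for the cell type. The tests were checked on simulated shares. Alternatives were other minimums, pooled chambers, a stricter filter (4000 UMIs, 20% mitochondrial), the 10% highest doublet scores of a well left out, blood and immune cells left out, days for stage order (P0 at day 19), and pools, stages and 1 sample left out. The second annotation of cluster 21, the cells marked as unsure, the relations of single chamber pairs, endocardial pairs and ribosomal percent were added after the data were seen. Python 3.11.15, numpy, pandas, scipy and matplotlib were used.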

Additional observations from a re-analysis of the deposited data

Results flagged for a closer look

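Of 37 groups of stages or wells in which 1 value could stand apart by Dixon's test, 3 did, where chance flags about 1 in 20. In CD1 from E13.5 to birth, E18 had the highest median of detected genes per epicardial cell, 3768, and it is the stage of the pool E18_P1. Among the postnatal CD1 stages, P0 had an atrial share of non-myocytes of 18.6%. Among the postnatal C57BL/6 stages with enough cells, P9 had a median of 14284.5 UMIs per epicardial cell, from 1 sample. The log2 ratio of the atrial to the ventricular share rose with stage in CD1 (rho 0.655, two-sided permutation test, p = 0.00378, adjusted p = 0.00648, n = 18 stages), so the courses of the chambers differed on that scale. On the scale of percentage points the same test gave rho -0.38 (permutation p = 0.125, adjusted p = 0.15).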

How the results depend on the processing

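Of 919 alternatives over 38 results, 843 kept direction and call, 40 lost a call, 9 gained one and 27 reversed the sign, and 11 results kept both throughout. Among these 11 are Pearson's r of both main shares in each strain, counted beside rho and with only 1 alternative each, days for stage order. Also among them are results never called: LA minus RA and LV minus RV in CD1, and UMIs against fibroblast-like cells in C57BL/6. The causes were not tested beyond what each alternative's own construction shows. No paired analysis was possible because replicate numbers pair no samples, as every group has 1 sample with number 1. The pairing of chambers, strains and cell types within stages comes from the stage labels instead.

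Cluster 21 as CMs lost the CD1 relation of the share of non-myocytes with stage (rho -0.35), the early difference (7.74 points) and the strain difference (2.85 points), and gave rho 0.29 for UMIs and 0.29 for detected genes, also without E9.5 and E10.5 (0.29 and 0.29). The unsure cells counted as other non-myocytes gave rho -0.35 for the share, 10.1 points early, 0.11 for UMIs and 0 for detected genes.

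Without E9.5_P3, CD1 had rho -0.32 for the share of non-myocytes, -0.21 for the share with fibroblast-like cells and 0.54 with endocardial cells, strain differences of 0.272 and 0.402 points, epicardial minus fibroblast-like values of -0.49 (log2 UMIs) and 0.788 points mitochondrial, and epicardial minus endocardial values of -0.19 (log2 UMIs), -0.12 (log2 genes) and -1.22 points. E9.5_P3 alone gave rho -0.60 (adjusted permutation p = 0.0799) for the share, 0.42 for the mitochondrial percent, 15.2 points early and -0.11 for UMIs against fibroblast-like cells. Without P2_P9 these were 0.17 (mitochondrial), 15.4 points and -0.16, and without E18_P1 0.0549 (mitochondrial) and -0.25. In C57BL/6, E10.5_P4 alone gave rho -0.58 for the share (adjusted permutation p = 0.0742), 0.0165 for the atrial share, -0.82 for UMIs and 0.41 for the mitochondrial percent, 5.29 and 16.6 points early and 8.47 points between chambers. Without it LV minus RV was -1.04 points.

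Pooled chambers gave C57BL/6 early differences of 5.56 and 11.4 points and rho -0.14 for atrial minus ventricular share. That rho was -0.27 with at least 20 cells in the denominator, where LA minus RA was 1.24 points, -0.0879 under the stricter filter, where atria minus ventricles was 6.83 points, -0.36 without blood cells and -0.58 without blood and immune cells, where LV minus RV was -0.063 and -0.171 points. At least 5 cells of a type gave epicardial minus fibroblast-like values of -0.21 (log2 UMIs) and 0.572 points in CD1, and 0.0159 (log2 genes) and 0.676 points in C57BL/6. At least 20 gave -0.11 (log2 genes) in CD1 and 0.878 points in C57BL/6, with rho -0.87, -0.78 and 0.47 for C57BL/6 UMIs, genes and mitochondrial percent over stages. Without the highest doublet scores the CD1 gene value was -0.13.

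Leaving out 1 stage at a time kept the direction and call of the main shares over stages, the early differences and the strain differences. In CD1 rho ran from -0.21 to 0.11 for UMIs, from -0.30 to 0.011 for detected genes (both highest without E10.5 or E11.5) and from -0.26 to 0.0989 for the mitochondrial percent (highest without P4), and the fibroblast-like differences from -0.33 to -0.21 (log2 UMIs) and from -0.14 (without P3, called) to -0.0678 (log2 genes). In C57BL/6 rho ran from -0.78 to -0.40 for UMIs, from -0.28 to 0.0839 for the mitochondrial percent (highest without P8 or P9) and from -0.17 to 0.14 for atrial minus ventricular share (below 0 without E10.5, E11.5 or E12.5). Atria minus ventricles ran from 6.42 to 8.87 points, LA minus RA from -2.70 to 0.222 (highest without E12.5), and the log2 values from -0.0527 to 0.00519 for genes against fibroblast-like cells (highest without E17.5), and from 0.14 to 0.30 (UMIs) and 0.0901 to 0.175 (genes) against endocardial cells, both called without E17.5.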
